A study of Mus musculus with 52 samples.

Results

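The mouse embryonic stem (ES) cell lines PDCUMNT and HM-1 were set against each other directly on 4 of the 52 two-colour cDNA arrays of a series of 13 such comparisons among 7 lines. The 4 arrays were chosen by their titles, and every gene on them was described. PDCUMNT was labelled with Cy5 and HM-1 with Cy3 on arrays 1 and 2, and the dyes were swapped on arrays 3 and 4. HM-1 is a mouse ES line long used for gene targeting. The series text says that the lines differ in the source of their donor nuclei, and that 2 of the lines came from nuclei of cumulus cells, the somatic cells that surround the oocyte, through different cloning methods. It does not name those lines, and the labels do not spell out PD, CUM or NT. No label gives a genotype, passage, age, culture condition or number of separate cultures for either line, so the 4 arrays may be hybridisations of the same RNA and the p-values then measure only the spread between arrays.

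ES cells keep the capacity to form all tissues of the embryo through a network of transcription factors around Pou5f1 (Oct4), and naive cells also express Zfp42 (Rex1). They make Nodal, a growth factor of the Tgf-beta family, together with its secreted inhibitors of the Lefty family, which Nodal itself induces. Cholesterol is made in a chain of enzymes that starts near Hmgcs1 and ends at Dhcr7, and the genes of the chain are switched on together by the sterol-regulated factors of the Srebf family.

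Each value is a ratio of the 2 channels of an array, read here as log2, so a value of 1 is a 2-fold difference. Ratios were turned by the dye labels to PDCUMNT minus HM-1, on the reading that the deposited ratio is Cy5 over Cy3. On that reading a positive value is higher in PDCUMNT and a negative value is lower in PDCUMNT. The numerator dye is not given in the sources used here, and if it is Cy3 every sign turns at once. Signs are therefore written as positive or negative. A ratio holds no level, so how strongly either line expressed a gene, including the markers of ES cells, could not be checked.

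Of 17053 features (9030 named genes and the unnamed probes), 17005 had a value on at least 1 of the 4 arrays and 15842 were measured on at least 3 of them in both dye orientations and were tested. At an adjusted p under 0.05 (limma, Benjamini-Hochberg), 180 features passed, 1.14% of those tested, with 88 positive values (0.555%) and 92 negative values (0.581%). This balance depended on array 3 and, less, on array 4: without array 3 there were 49 positive and 155 negative calls, and without array 4 there were 48 positive and 87 negative. A named gene accounted for 106 of them, 58 positive and 48 negative. The size of the called ratios ran from 0.72 to 4.63 with a median of 1.5, and 146 were beyond 2-fold. The ratio had the same sign on every measured array in 139 of the 180 called features, 67 of them positive and 72 negative, and in 18.2% of all tested features. Of all tested features 6750 had a positive and 9092 a negative fitted value. This share of 42.6% positive is the background for the counts of signs in the gene lists below. For their counts of calls the background is the 1.14% of all features, or 0.555% positive and 0.581% negative. At these shares most lists would hold few or no calls, and no list was tested against them. Between 18766 and 19226 probes had a value on each array.

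The 4 arrays agreed poorly over all features, and this limits every result. The rank correlation of the turned ratios was 0.243 between arrays 1 and 2 and 0.270 between arrays 3 and 4, which share a dye orientation. Between arrays of opposite orientation it ran from -0.066 to -0.018. In the deposited ratios, before turning, 23% of all tested features had the same sign on every array, a larger share than after turning. A dye term for each feature was therefore part of the fit. With the 4 arrays fitted alone no feature passed, so the calls rest on the spread estimated over all 52 arrays.

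**Figure D1:**
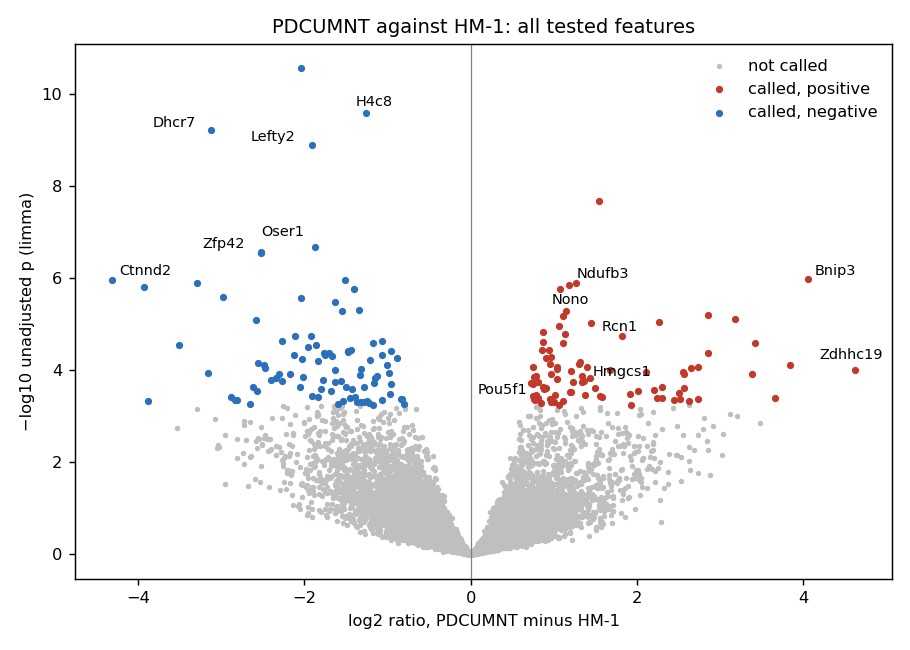
Each point is 1 of the 15842 tested features. The x axis is the log2 ratio of PDCUMNT minus HM-1 and the y axis is the negative log10 of the unadjusted p (limma). Coloured points are the 88 positive and 92 negative features with an adjusted p under 0.05. Coloured points without a name include probes for which no gene is listed, among them the topmost point. Dhcr7, Lefty2 and H4c8 are the named genes with the smallest p, all on the negative side.

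The promoters of 3 genes on which the pluripotency and cholesterol results turn are shown with the short motifs known for their pathways. Each is the 250 bases before the annotated start from RefSeq (mouse build GRCm38.p6), written 5′ to 3′ on the gene's own strand. The motifs were the octamer ATTTGCAT bound by Pou domain factors, the sterol element TCACNCCAC bound by Srebf factors and the CCAAT box, a general promoter element. Both strands were searched and capitals mark the matches. The window of Zfp42 is chr8:43307010-43307259 on the minus strand, that of Hmgcs1 chr13:119690101-119690350 on the plus strand and that of Dhcr7 chr7:143829964-143830213 on the plus strand, 1 of the 3 starts listed for that gene.
Zfp42 promoter: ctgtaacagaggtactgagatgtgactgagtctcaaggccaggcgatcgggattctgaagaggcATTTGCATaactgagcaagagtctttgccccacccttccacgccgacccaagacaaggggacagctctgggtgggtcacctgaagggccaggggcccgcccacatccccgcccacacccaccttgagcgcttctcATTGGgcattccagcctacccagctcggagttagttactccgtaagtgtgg
Hmgcs1 promoter: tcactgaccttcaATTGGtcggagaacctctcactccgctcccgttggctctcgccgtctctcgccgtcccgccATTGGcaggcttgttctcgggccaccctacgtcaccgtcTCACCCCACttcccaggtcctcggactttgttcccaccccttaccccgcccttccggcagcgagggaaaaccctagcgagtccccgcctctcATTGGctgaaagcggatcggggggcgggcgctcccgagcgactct
Dhcr7 promoter: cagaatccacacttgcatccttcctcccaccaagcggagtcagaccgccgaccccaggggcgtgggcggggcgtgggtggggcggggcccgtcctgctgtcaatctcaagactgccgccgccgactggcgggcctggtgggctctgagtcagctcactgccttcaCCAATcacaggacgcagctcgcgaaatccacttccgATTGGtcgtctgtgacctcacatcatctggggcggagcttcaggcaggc
The Zfp42 window held 1 octamer, which begins 186 bases before the start, and a CCAAT box 51 bases before it. An octamer was present in 1.60% of 32851 promoter windows of the same length. The Hmgcs1 window held 1 sterol element at 137 bases (1.05% of windows) and 3 CCAAT boxes. The Dhcr7 window held 2 CCAAT boxes, at 85 and 49 bases, and 0 sterol elements. A CCAAT box was present in 33.8% of windows. Of the 3 starts of Dhcr7 the start shown was picked for holding the most CCAAT boxes, so its count cannot be set against that share. Sterol elements at its other starts are not given here, so the 0 does not show that the gene lacks them. These matches describe letters and not binding.

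The pluripotency genes gave 1 call in each direction. Zfp42 (Entrez gene 22702, chromosome 8), a zinc finger gene of naive ES cells, had log2 ratios of -1.74, -2.51, -2.48 and -3.37 on arrays 1 to 4. All 4 arrays were clearly negative, and the fitted ratio was -2.53 ± 0.41 (SE, n = 4 arrays, limma adjusted p = 0.00056). Pou5f1 (Entrez gene 18999, chromosome 17), the central factor of the network, had 0.88, 1.22, 0.46 and 0.93. Its values were positive on all 4 arrays and far smaller in size, with a fitted ratio of 0.87 ± 0.22 (adjusted p = 0.031). The Pou5f1 call was lost without array 1 (0.94, adjusted p = 0.060), without array 2 (0.82, 0.119) and without array 4 (0.78, 0.128), and that of Zfp42 held without each array in turn.

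Of 28 pluripotency genes tested, these were the only called members, 3.57% in each direction against 0.555% positive and 0.581% negative over all features. The median was 0.03 against -0.08 over all features. Values were positive in 15 and negative in 13, and at an unadjusted p under 0.05 (limma) 7 were positive and 5 negative, the called genes included. Dnmt3l, a partner of the de novo DNA methyltransferases, was at 1.55 ± 0.43 (adjusted p = 0.056), the ES cell chromatin factor Utf1 at 1.31 ± 0.42 (0.124) and the X-linked nuclear receptor Nr0b1 (Dax1) at 1.01 ± 0.33 (0.131). Tested singly, the 2 probes of Utf1 gave 1.33 ± 0.44 and 1.28 ± 0.23. Each of Dnmt3l, Utf1 and Nr0b1 was positive on all 4 arrays. Negative values that did not pass were smaller in size than these 3. The alkaline phosphatase gene Alpl was at -0.95 ± 0.33 (adjusted p = 0.170), the adhesion molecule gene Pecam1 at -0.86 ± 0.36 (0.292), the Akt co-activator gene Tcl1 at -0.77 ± 0.32 (0.314) and Dppa4, a chromatin protein of ES cells, at -0.61 ± 0.24 (0.246). Alpl, Pecam1 and Dppa4 were negative on all 4 arrays. The Pecam1 probe measured on all 4 arrays was at -0.48, and its other probe had a value on array 4 only, of -3.53. Dppa3, a protein of the germline and early embryo, was at 0.68 ± 0.35 and Dppa5a, an RNA-binding protein of ES cells, at 0.60 ± 0.20. The factors Klf4 (-0.02 ± 0.18), Esrrb (0.00 ± 0.47) and Sall1 (0.13 ± 0.35) were close to 0. Sox2, the usual partner of Pou5f1, was at -0.58 ± 0.45 as the mean of 2 probes that disagreed. The Sox2 probe measured on all 4 arrays was at 0.15, and the other, measured on 3, at -1.27. The mean of -2.14 on array 2 joined 0.89 and -5.17 of these probes, while the other 3 arrays of Sox2 lay between -0.83 and 0.59.

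The Nodal inhibitor gene Lefty2 (Entrez gene 320202, on chromosome 1) was among the most even of the called genes. Its log2 ratios were -1.85, -1.90, -1.96 and -1.92 on arrays 1 to 4. In the deposited ratios arrays 1 and 2 were negative and arrays 3 and 4 were positive, so that the sign followed the dye carrying PDCUMNT. The fitted ratio was -1.91 ± 0.25 (n = 4 arrays, limma adjusted p = 4.97e-06). It was the 1 called member among 12 genes of the Nodal and Activin pathway (8.33%, against 1.14% of all features). Their median was -0.12 with 6 positive and 6 negative values. At an unadjusted p under 0.05 (limma) 1 member was positive and 3 were negative, Lefty2 included. Lefty1, of the same family, was at -1.30 ± 0.44 (adjusted p = 0.151) and negative on all 4 arrays. The positive member, Smad3, was at 1.225 ± 0.41 (0.142). No gene was called in the other signalling lists, which were LIF, Jak and Stat (10 genes tested, median -0.23), Fgf and Erk (13 genes, -0.28), Wnt (18 genes, -0.05) and Bmp with the Id genes (13 genes, 0.11). At an unadjusted p under 0.05 (limma) these lists had 0, 2, 1 and 0 members, all negative.

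The ends of the cholesterol chain had opposite signs. Dhcr7 (Entrez gene 13360, chromosome 7), which carries out the last step, had -2.32, -2.67, -4.52 and -2.99 on arrays 1 to 4, all strongly negative. The fitted ratio was -3.13 ± 0.39 (n = 4 arrays, limma adjusted p = 3.2e-06), and it passed without each array in turn. Hmgcs1 (Entrez gene 208715, chromosome 13), which makes hydroxymethylglutaryl-CoA at the head of the chain, had 1.15, 1.66, 1.31 and 1.24. The 4 arrays were alike, the 2 probes of the gene gave 1.48 and 1.20, and the mean ratio was 1.34 ± 0.32 (adjusted p = 0.022). The Hmgcs1 call was lost without array 1 (1.38, adjusted p = 0.061), array 2 (1.21, 0.118) or array 4 (1.40, 0.054). Among the 12 enzymes of the sterol chain tested, 9 were positive and 3 negative, these 2 genes were the ones called, and the median was 0.55. The other 7 genes of the list, which make fatty acids or regulate the pathway, had a median of 0.23 and no call (limma). Of all 19 genes of the list 5.26% were called in each direction, against 0.555% positive and 0.581% negative over all features. The whole list of 19 genes had a median of 0.31, which was positive on each array, at 0.54, 0.62, 0.40 and 0.24, against 0.06, 0.07, -0.18 and -0.15 over all features.

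Both called histone genes were negative. H4c8 (Entrez gene 69386, chromosome 13), 1 of the genes for histone H4, had -1.10, -1.10, -1.43 and -1.40 on arrays 1 to 4. The arrays of one orientation were almost equal to each other and those of the other slightly further from 0, and the fitted ratio was -1.26 ± 0.15 (n = 4 arrays, limma adjusted p = 2.07e-06). H3f3b (Entrez gene 15081, chromosome 11), which encodes the replacement histone H3.3, had -0.34, -1.38, -1.04 and -1.08. Array 1 was nearest to 0, both probes were negative (-1.27 and -0.65), and the mean ratio of -0.96 ± 0.21 (adjusted p = 0.012) lost its call without array 2 (-0.84, 0.091) and without array 4 (-0.89, 0.060). These 2 were 11.8% of the 17 histone and histone chaperone genes tested, against 1.14% called of all features. The other 15 were not called, and the list median was 0.04. Histone genes occur in near-identical copies, and which copies bind a cDNA probe could not be told apart.

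**Figure D2:**
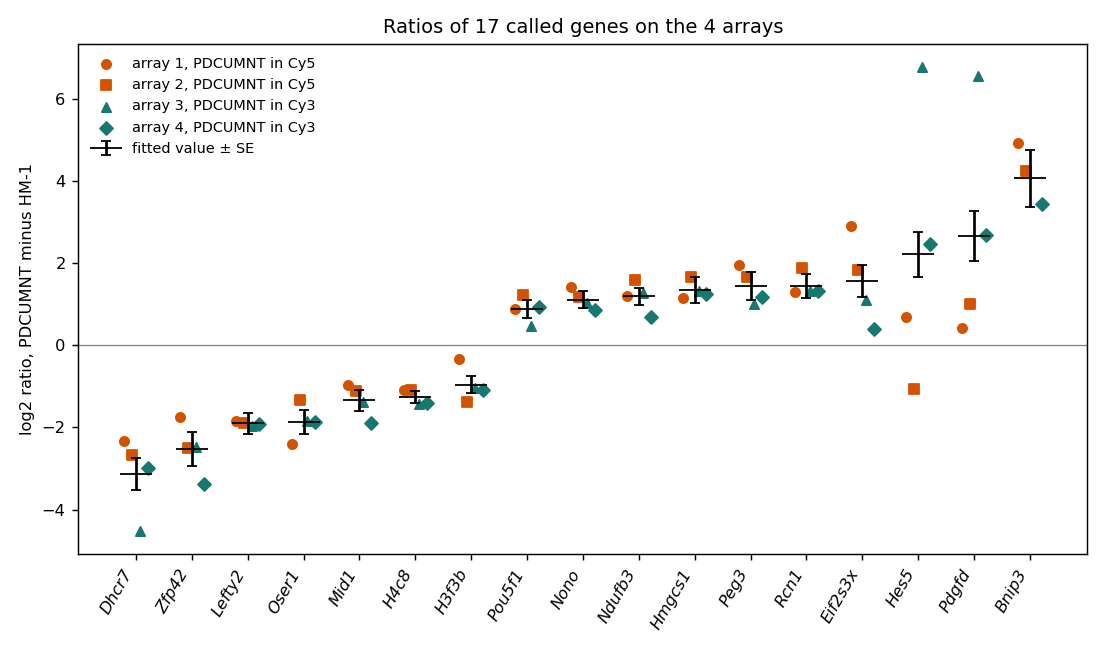
Log2 ratios of PDCUMNT minus HM-1 (y axis) for 17 called genes (x axis) on each of the 4 arrays. Circles and squares are arrays 1 and 2 (PDCUMNT in Cy5), triangles and diamonds arrays 3 and 4 (PDCUMNT in Cy3), and black bars the fitted value with its SE. Lefty2, H4c8 and Rcn1 lie close together over the arrays, while Hes5 and Pdgfd each have 1 value above 6 on array 3.

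Genes of energy metabolism and protein turnover had mostly positive, small ratios. Ndufb3 (chromosome 1), a subunit of complex I of the respiratory chain, had 1.19, 1.60, 1.27 and 0.69 on arrays 1 to 4, all positive. The fitted ratio was 1.18 ± 0.21 (n = 4 arrays, limma adjusted p = 0.00156). It was the 1 called gene of 73 in the respiratory chain and ATP synthase (1.37%, near the 1.14% of all features). There 54 values were positive (74%, against 42.6% of all features) and 19 negative around a median of 0.29. Among 39 proteasome genes 26 were positive (66.7%) with a median of 0.30. Called were 2 of the 39 (5.13%, against 1.14% of all features). They were the catalytic core subunit Psmb2 (0.91 ± 0.20, adjusted p = 0.014) and the regulatory subunit Psmd2 (1.38 ± 0.35, 0.039). Psmd2 had 0.93, -0.58, 3.66 and 1.52 on arrays 1 to 4, so array 2 was negative, and without array 3 the ratio was 0.72 (adjusted p = 0.461). Psmb2 was positive on all 4 arrays, from 0.68 to 1.12, but lost its call without array 1 (0.85, 0.076) and without array 2 (0.87, 0.064).

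Of 60 cytosolic ribosomal protein genes, Rpl7 (0.90 ± 0.22) and Rpl37a (0.79 ± 0.19) were called, both positive. They were 3.33% of the list, against 1.14% called of all features, and the list median was 0.06. Rpl7 did not pass without any 1 of the arrays (adjusted p from 0.061 to 0.134), and Rpl37a did not without array 1 (0.68, adjusted p = 0.149), array 2 (0.84, 0.054) or array 3 (0.80, 0.051). None of 60 mitochondrial ribosomal protein genes passed, 42 of them being positive (70%, against 42.6% of all features, median 0.19). In these lists the medians were higher on arrays 1 and 2 than on arrays 3 and 4. The respiratory list, for example, had 0.42, 0.46, 0.12 and 0.11, and all features had 0.06, 0.07, -0.18 and -0.15.

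Among 24 genes of glycolysis and of the hypoxia response, 1 gene was called in each direction (4.17%, against 0.555% positive and 0.581% negative over all features). Slc2a3, the glucose transporter GLUT3, had -1.97, -1.001, -0.90 and -0.77 on arrays 1 to 4. All were negative, array 1 the most, and the ratio of -1.16 ± 0.28 (limma adjusted p = 0.026) changed to -0.84 (0.272) without array 1 and to -1.17 (0.085) without array 2. Bnip3 (Entrez gene 12176, chromosome 7), a hypoxia-inducible protein of the outer mitochondrial membrane, had 4.91 and 4.24 on arrays 1 and 2 and 3.44 on array 4, and no value on array 3. All 3 were far above 0, those of arrays 1 and 2 being shared by 4 and 2 probes, with a fitted ratio of 4.06 ± 0.70 (n = 3 arrays, adjusted p = 0.00153).

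Among 31 chaperones and genes of the unfolded protein response, the small heat shock protein gene Hspb1 (0.82 ± 0.21, adjusted p = 0.043) and Chac1 (-1.60 ± 0.42, 0.048), which degrades glutathione, were called with opposite signs. Neither passed with any 1 array left out, and Hspb1 had 1.28 and 1.33 on arrays 1 and 2 but 0.30 and 0.36 on arrays 3 and 4. The mitotic kinase gene Plk1 was the 1 called gene of 38 in the cell cycle list (2.63%, against 1.14% of all features). Plk1 was at 1.37 ± 0.33 (limma adjusted p = 0.025). It had 3.26 on array 3 and from 0.45 to 1.11 on the other arrays, and without array 3 it was at 0.83 (0.308). The interferon-induced membrane protein gene Bst2 was the 1 called of 21 interferon and antigen presentation genes (4.76%, against 1.14% of all features). Its values were 1.34 and 1.34 on arrays 1 and 2 but 0.38 and 0.44 on arrays 3 and 4, a split by dye orientation, and the ratio of 0.87 ± 0.18 (0.0099) lost its call without array 1 (0.80, 0.057) and without array 2 (0.80, 0.059).

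Peg3 (Entrez gene 18616, chromosome 7), a zinc finger gene expressed from the paternal allele, was the 1 called imprinted gene among 9 paternally and 17 maternally expressed genes tested. Peg3 made up 11.1% of the paternally expressed genes, against 1.14% called of all features. It had 1.94, 1.66, 0.99 and 1.17 on arrays 1 to 4. All values were positive and higher on arrays 1 and 2, with a fitted ratio of 1.44 ± 0.34 (limma adjusted p = 0.024). The call was lost without array 1 (1.37, 0.097), array 2 (1.46, 0.073) or array 4 (1.43, 0.072). None of 25 genes of DNA methylation and silencing passed, 16 of them with positive values (64%, against 42.6% of all features).

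X-linked genes had 6 positive and 1 negative call among 216 tested, which is 3.24% against 1.14% over all features. The median of X-linked genes was -0.03, against -0.08 over all features, with 104 positive and 112 negative values. Nono (Entrez gene 53610), an RNA-binding protein of nuclear paraspeckles, had 1.40, 1.17, 1.01 and 0.85 on arrays 1 to 4. All were positive, both probes were positive (0.94 and 1.28), and the mean ratio was 1.11 ± 0.22 (limma adjusted p = 0.0042), a call that held without each array in turn. Eif2s3x, a subunit of translation initiation factor 2, was at 1.56 ± 0.40, and Mpp1, a membrane scaffold protein, at 1.31 ± 0.30. Eif2s3x did not pass without any 1 of the arrays (adjusted p from 0.054 to 0.222), and Mpp1 did not without array 1, 2 or 3 (0.055 to 0.075). Taf9b, a relative of a TFIID subunit, was at 2.55 ± 0.59 on 3 arrays, with 4.26 on array 4, a value shared by 8 probes. The Taf9b call was lost with 1 coefficient per line. Apool, a protein of the mitochondrial cristae, had 0.73, 0.23, 3.28 and 0.70, so that its ratio of 1.24 ± 0.30 dropped to 0.61 (adjusted p = 0.437) without array 3, and it also did not pass without array 1 (1.34, 0.052). Mid1 (Entrez gene 17318), a microtubule-associated ubiquitin ligase, was negative at -1.35 ± 0.26 as a mean of 3 probes that disagreed, at -2.03, -2.45 and 0.45. On the Y chromosome, Kdm5d was at -1.02 ± 1.17 and Zfy1 at -0.48 ± 0.46, neither of them called.

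The lists of markers of other cell types gave few calls, as short lists would at the 1.14% called of all features. Among 29 markers of fibroblasts and feeder cells, 18 were positive (62.1%, against 42.6% of all features) and 11 were negative. None of these markers was called (limma, with 5 positive and 2 negative at an unadjusted p under 0.05). Their median was 0.27, above the -0.08 of all features, with array medians of 0.39, 0.28, -0.04 and 0.17. The intermediate filament gene Vim was at 0.19 ± 0.21. The part of such cells in the ratios was not tested, and fewer cells of a type and less RNA per cell cannot be told apart in bulk RNA. No gene was called among 11 of cumulus and granulosa cells (median -0.15), 12 of the germline (-0.10), 10 of trophectoderm (0.02) or 15 of primitive and visceral endoderm (0.15). At an unadjusted p under 0.05 these 4 lists had 1, 0, 0 and 2 positive members and 1, 0, 0 and 1 negative members. Of 16 mesoderm and neural genes Hes5, a Notch target of neural progenitors, was called at 2.21 ± 0.55. Its values of 0.69, -1.07, 6.76 and 2.46 on arrays 1 to 4 did not share a sign, and the call was lost without array 3 (0.80, adjusted p = 0.618) and without array 4 (2.27, 0.075).

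**Figure D3:**
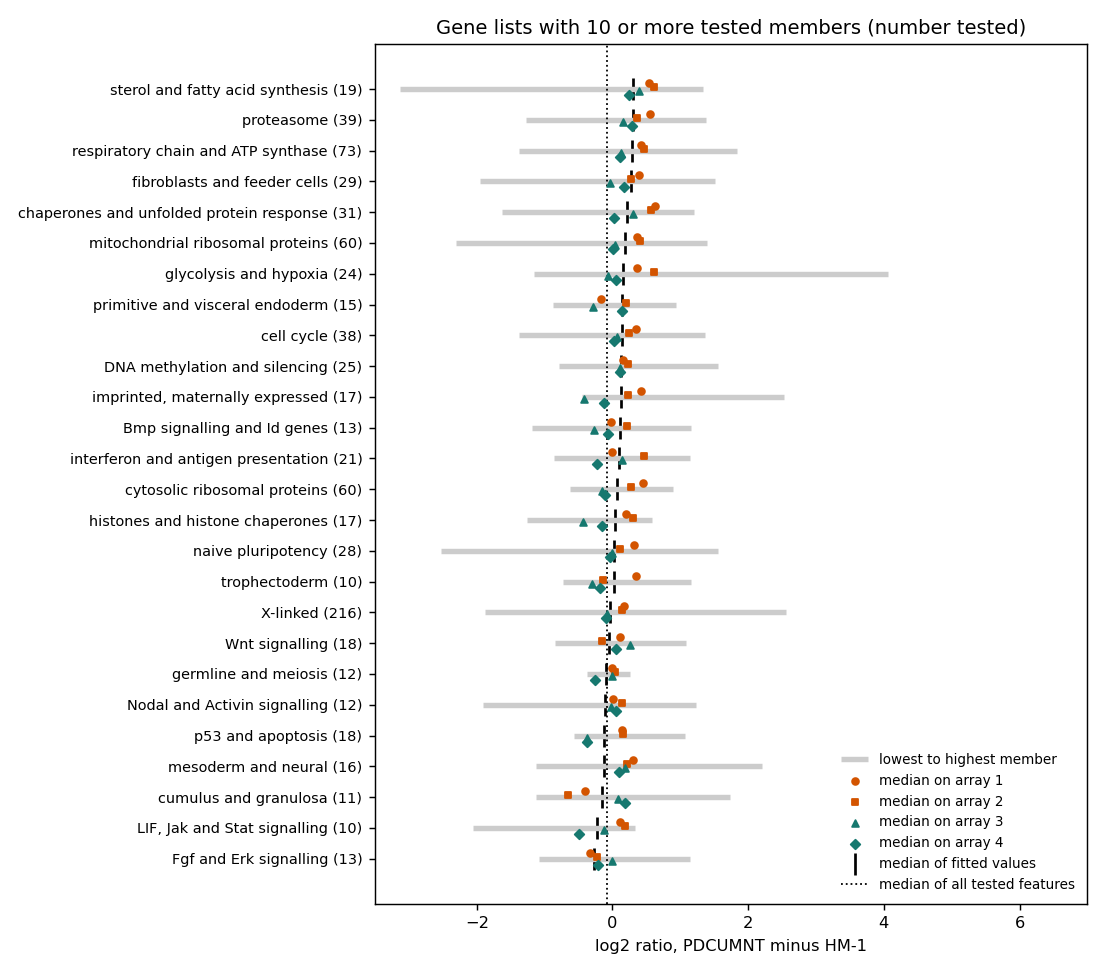
Gene lists with at least 10 tested members (y axis, number tested in brackets) against the log2 ratio of PDCUMNT minus HM-1 (x axis). Grey bars run from the lowest to the highest member, black ticks are medians of the fitted values, coloured points are medians on the single arrays, and the dotted line is the median of all tested features (-0.08). Sterol and fatty acid synthesis (0.31), the proteasome (0.30) and the respiratory chain (0.29) have the highest medians, and most lists lie higher on arrays 1 and 2 than on arrays 3 and 4.

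The largest ratios outside these lists belonged to genes of mixed function, and many rested on few arrays. Among positive values, Zdhhc19, a palmitoyltransferase, was at 4.63 ± 0.97 with 1.69, 7.88 and 4.77 on arrays 2 to 4. Inf2, a formin that acts on actin, had 1.86, 3.75, 3.23 and 2.59, all well above 0, for a ratio of 2.86 ± 0.58 (limma adjusted p = 0.013) that did not pass without array 2 (2.70, 0.060) or array 3 (2.58, 0.052). Dhx57, a putative RNA helicase, had 4.78 and 3.70 on arrays 1 and 2 and 1.20 and 1.27 on arrays 3 and 4, a split by dye orientation. Its ratio of 2.74 ± 0.61 did not pass without array 1 (2.28, 0.128) or array 2 (2.66, 0.073). Pdgfd, a platelet-derived growth factor, had 0.41, 0.99, 6.56 and 2.67, and without array 3 its ratio of 2.66 was 1.48 (0.282). The ciliary transport gene Ift46 (2.30) and the RNA exonuclease gene Dis3l2 (1.93), both measured on 3 arrays, likewise had 1 high value on array 3, of 5.94 and 5.07. Such high turned values on array 3 were very low deposited values that several probes shared. The 7.88 of Zdhhc19 was shared by 6 probes of that array, the 6.56 of Pdgfd by 7, the 6.76 of Hes5 by 10, the 5.94 of Ift46 by 2 and the 5.07 of Dis3l2 by 8. Whether these shared values are a floor rather than measured ratios was not tested. With deposited values beyond 4 left out, Zdhhc19, Ift46, Dis3l2, Taf9b, Tctex1d1, Bnip3, Ctnnd2, Pqlc3 and 4930524B15Rik had too few arrays to be tested. Array 3 held a value beyond 5 for 10 of the 106 called genes with a symbol, against 0, 2 and 2 on arrays 1, 2 and 4.

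Other positive genes had no such single high value on array 3. Rcn1 (Entrez gene 19672, chromosome 2), a calcium-binding protein of the endoplasmic reticulum, had 1.28, 1.87, 1.31 and 1.33, with a ratio of 1.45 ± 0.29 (limma adjusted p = 0.0052) that passed without each array in turn. Grk6, a kinase that acts on G protein-coupled receptors, was at 2.44 ± 0.62 on 3 arrays. The Grk6 call was lost in 5 of 12 alternatives with turned ratios, among them the fit without a dye term. Gdap2, a protein of unsettled function, was at 2.11 ± 0.48 on 4 arrays. The retinal reductase Rdh11 was at 1.67 ± 0.39 and Pnp, a purine nucleoside phosphorylase, at 1.497 ± 0.37. Gdap2 was uneven, from 0.62 on array 1 to 2.99 on array 2. Rdh11 ran from 0.81 on array 1 to 2.73 on array 4, and its 2 probes gave 2.05 and 0.985. Each of Gdap2, Rdh11 and Pnp lost its call with some arrays left out: Gdap2 without array 2, 3 or 4, Rdh11 without array 3 or 4, and Pnp without array 1, 2 or 4, with adjusted p from 0.063 to 0.157.

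Among negative values, Ctnnd2 (Entrez gene 18163, chromosome 15), the neural delta-catenin, had -3.998, -3.03 and -6.02 on arrays 2 to 4 and no value on array 1. All 3 were far below 0, and the ratio was -4.31 ± 0.72 (limma adjusted p = 0.00153). Oser1 (Entrez gene 66680, chromosome 2), named for its response to oxidative stress, had -2.40, -1.35, -1.84 and -1.87, for a ratio of -1.87 ± 0.30 (adjusted p = 0.000542) that passed without each array in turn. Anln, the contractile ring protein anillin, had -0.93 and -0.86 on arrays 1 and 2 and -2.34 and -2.66 on arrays 3 and 4, again a split by dye. Its ratio of -1.70 ± 0.37 did not pass without array 4 (-1.49, 0.075). Car2, a carbonic anhydrase, was at -1.67 ± 0.37 with all 3 probes negative (-2.40, -1.58 and -1.01), and did not pass without array 2 (-1.34, 0.127). The Car2 probe at -2.40 had -4.39 on array 2, a value shared by 12 probes.

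The GTPase gene Rap1a (-2.66) and the NF-kappaB gene Relb (-2.40) were each measured on 3 arrays, as were Pqlc3 (-3.88) and 4930524B15Rik (-3.16). Pqlc3 had -4.49 on array 1, a value shared by 4 probes, and -4.32 on array 4, shared by 7. The -4.48 of 4930524B15Rik on array 2 was shared by 7 probes. Rap1a lost its call in 8 of 12 alternatives with turned ratios, among them array medians subtracted (-2.59, limma adjusted p = 0.054), and Pqlc3 lost it in 6 of 11, with -1.75 (0.324) under 1 coefficient per line. The phosphatidate phosphatase gene Lpin2 had -4.71 and -3.77 on arrays 1 and 2 but -0.44 and -0.96 on arrays 3 and 4, a split by dye orientation. Its ratio of -2.47 did not pass without array 1 (-1.77, adjusted p = 0.223) or array 2 (-2.09, 0.127). The -4.71 was shared by 4 probes, and the call of Lpin2 was also lost with deposited values beyond 4 left out. Fars2, a mitochondrial tRNA synthetase, was at -1.76 and did not pass without array 1 (-1.11, 0.243). Pdlim7, a PDZ and LIM domain protein, was at -1.84 and did not pass without array 4 (-1.33, 0.169). Its 2 probes had opposite signs on array 2 (0.80 and -1.02) and array 3 (-4.83 and 0.40), and 1 of them had no value on array 4. Pdlim7 also lost its call with probes tested singly and with deposited values beyond 4 left out. Mfsd4b5 was at -1.78 and did not pass without array 2 (-1.60, 0.127) or array 3 (-1.52, 0.124).

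The same line difference could also be reached through ZFCUMNT, which was set against HM-1 on 4 arrays and against PDCUMNT on another 4. Subtracting these gave an indirect value of PDCUMNT minus HM-1 that used none of the 4 direct arrays. Of 14281 features measured on all 3 sides, no direct value differed from its indirect value at an adjusted p under 0.05 (limma, 0%), and 842 (5.90%) did at an unadjusted p under 0.05. The SE of the indirect route is larger than that of the direct one, so this count does not show that the routes agree. The routes lay close for some genes, given here after their values were seen. Rcn1 was at 1.45 directly and 1.45 indirectly, H4c8 at -1.26 and -1.09, Dhcr7 at -3.13 and -2.93, and Zfp42 at -2.53 and -2.27. Lefty2 was at -1.91 directly and -2.27 indirectly, Hmgcs1 at 1.34 and 1.11, Peg3 at 1.44 and 1.27, Mid1 at -1.35 and -1.39, Bst2 at 0.87 and 0.82, and Anln at -1.70 and -1.51.

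Other called genes, including some that were even over the 4 direct arrays, lay apart on the routes. Bnip3 was at 4.06 directly and -0.30 indirectly, a difference of 4.35 ± 1.16 (limma adjusted p = 0.529). Pqlc3 was at -3.88 and 1.89, Tctex1d1 at 3.42 and -0.15, Rdh11 at 1.67 and -0.57, Grk6 at 2.44 and -0.15, and Mfsd4b5 at -1.78 and 0.43. Pou5f1 was at 0.87 directly and 0.25 indirectly, and Nono at 1.11 and 0.25. Pnp was at 1.497 directly and -0.12 indirectly, Car2 at -1.67 and -0.25, Lpin2 at -2.47 and -0.24, and Oser1 at -1.87 and -0.87. Ndufb3 was at 1.18 directly and 0.74 indirectly.

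**Figure D4:**
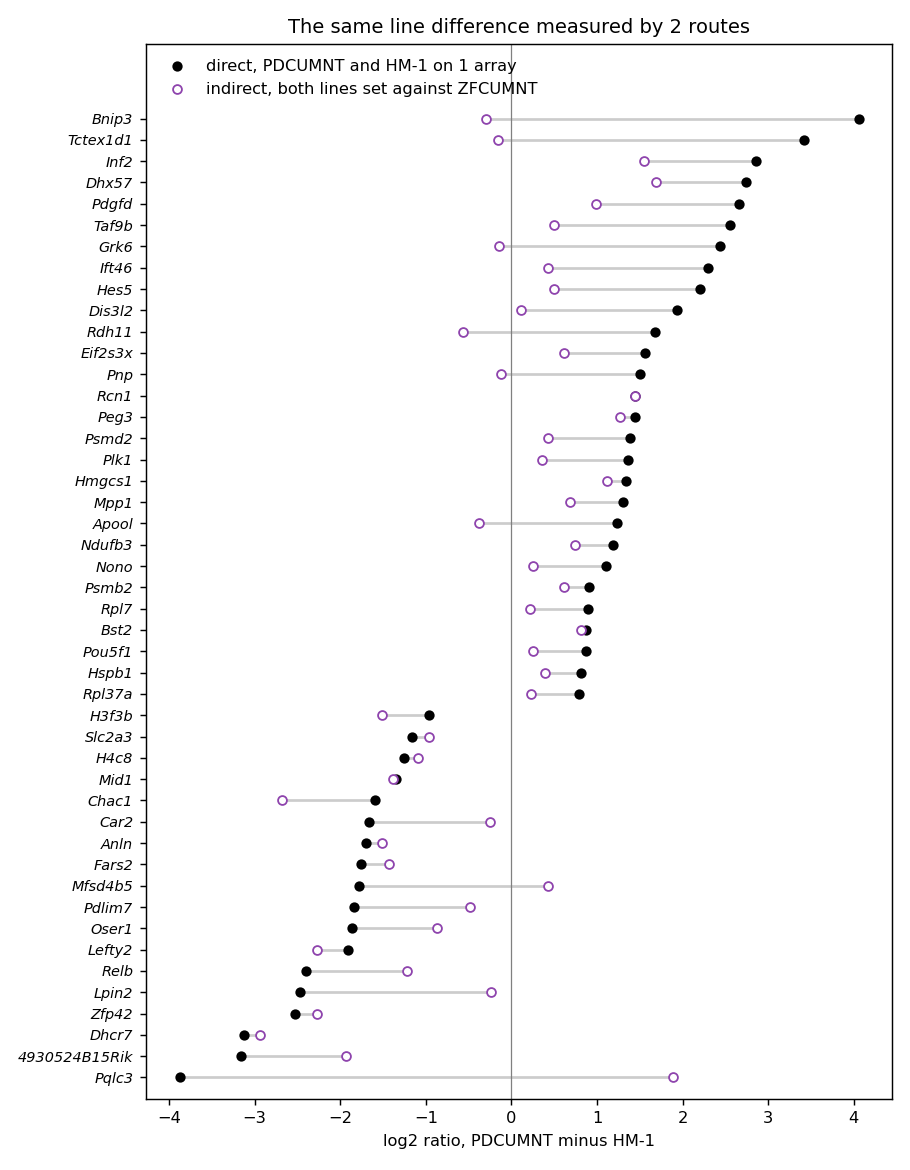
Log2 ratio of PDCUMNT minus HM-1 (x axis) for the called genes named in the text that were measured on both routes (y axis). Filled points are the direct values from the 4 arrays carrying both lines, and open points the indirect values through ZFCUMNT. The open and filled points of Rcn1, Mid1 and H4c8 nearly coincide, while Bnip3 lies at 4.06 directly and -0.30 indirectly and Pqlc3 at -3.88 directly and 1.89 indirectly.

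HM-1 was also set against 5 other lines, ZFCUMNT, B6NT, B6PGA, #4 (B6) and HM-1 NT, and all 6 comparisons share HM-1. H4c8 was at -1.26 in PDCUMNT and at -1.20, -1.10, -1.28, -0.98 and -1.28 in those 5 lines in that order, each of them called. Zfp42 was at -2.53 in PDCUMNT, at -2.44, -2.90, -2.14 and -2.85 in the first 4, and at 0.24 ± 0.41 in HM-1 NT. Dhcr7 was at -3.13 in PDCUMNT, at -2.54, -1.89 and -2.47 in ZFCUMNT, B6NT and B6PGA, and at -0.62 ± 0.39 and 0.23 ± 0.39 in #4 (B6) and HM-1 NT. The large negative values of Zfp42 and Dhcr7 were not seen in HM-1 NT, but PDCUMNT and HM-1 NT were not tested against each other.

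Lefty2 had its most negative values in the pair of lines whose names hold CUM, at -1.91 in PDCUMNT and -2.51 in ZFCUMNT. It was at -1.29 in #4 (B6) and -1.08 in HM-1 NT, and at 0.13 in B6NT and 0.11 in B6PGA. H3f3b was at -0.96 in PDCUMNT, at -1.24, -0.98 and -1.01 in ZFCUMNT, B6NT and B6PGA, and at -0.43 and -0.46 in #4 (B6) and HM-1 NT. Peg3 was at 1.44 in PDCUMNT, 1.73 in ZFCUMNT and 1.84 in B6NT, and from 0.10 to 0.90 in the other 3 lines.

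A contrast tested PDCUMNT minus HM-1 against the mean of the other 5 lines minus HM-1. A difference from that mean does not show that a value is particular to PDCUMNT. The contrast passed for 24 of 14369 features (0.167%), 7 positive (0.0487%) and 17 negative (0.118%). Oser1, measured on all 4 arrays, had a difference of -1.89 ± 0.33 (limma adjusted p = 0.0105), its values in the other 5 lines lying between -0.41 and 0.25. The arrays of ZFCUMNT against PDCUMNT gave Oser1 a ZFCUMNT minus PDCUMNT value of 0.46 (adjusted p = 0.615), so the difference was not called there. Ctnnd2 differed by -4.56 ± 0.77 (adjusted p = 0.0105), against values from -0.48 to 1.04 in the other lines. Bnip3 differed by 3.90 ± 0.75 (0.021), with the other lines between -0.03 and 0.54. On the arrays of both lines, ZFCUMNT minus PDCUMNT was 0.33 ± 0.70 for Bnip3 (limma adjusted p = 0.946), not called, and Ctnnd2 was not fitted.

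Penk, which encodes the opioid peptide precursor proenkephalin, differed in another way. It was at -0.15 ± 0.29 in PDCUMNT but averaged 1.41 over the other 5 lines, from 0.58 in ZFCUMNT to 2.59 in B6PGA, a difference of -1.56 ± 0.32 (limma adjusted p = 0.024). Its values on the 4 arrays were 0.66, 0.45, 0.06 and -1.76, so that array 4 lay below the others. Tctex1d1, a dynein light chain relative, and Adipoq, the fat cell hormone adiponectin, differed by 3.66 and 3.33. Each had 1 very high value on array 3, of 9.46 and 6.14, and a value just below 0 on array 1. The 9.46 of Tctex1d1 is the lowest deposited value of array 3 with its sign turned, shared by 5 probes. ZFCUMNT minus PDCUMNT was 0.15 for Penk (limma adjusted p = 0.935), -0.14 for Tctex1d1 (0.982) and 0.26 for Adipoq (0.952), none of them called. Dhcr7 (-1.67 ± 0.43, adjusted p = 0.080), Lefty2 (-0.98 ± 0.27, 0.120), Zfp42 (-0.51 ± 0.44, 0.975) and H4c8 (-0.09 ± 0.17, 0.999) did not differ from the mean of the other lines at this threshold.

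**Figure D5:**
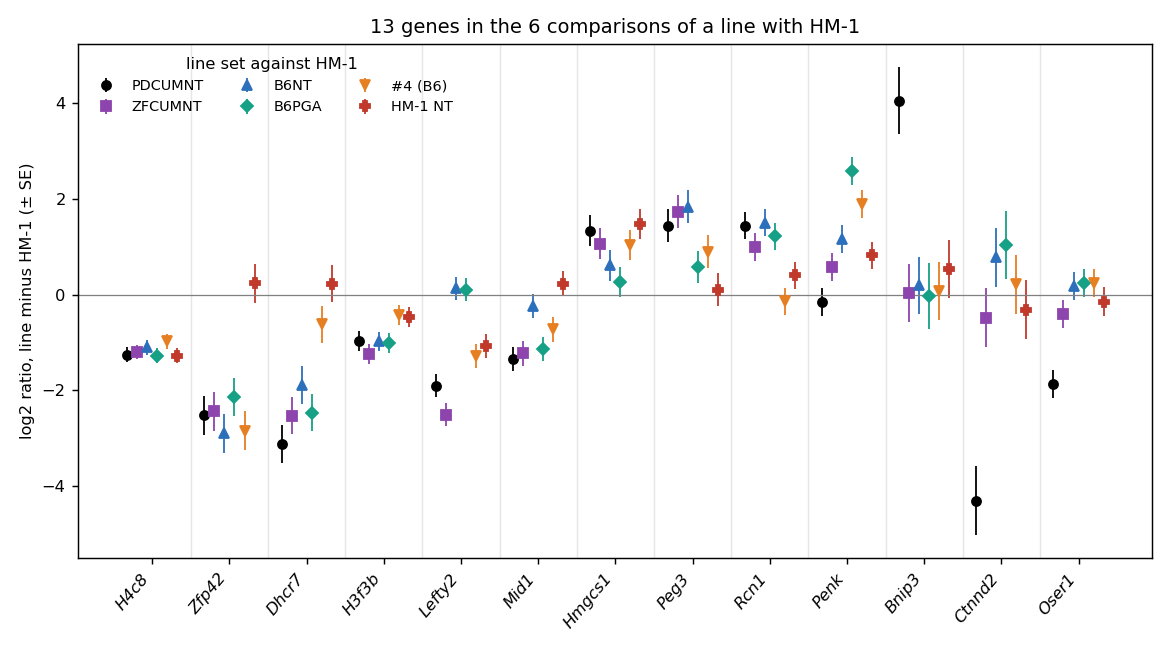
Log2 ratio of each line minus HM-1 with its SE (y axis) for 13 genes (x axis) in the 6 comparisons with HM-1, PDCUMNT first. H4c8 is negative at about the same size in all 6 comparisons, Zfp42 is near 0 in HM-1 NT only, and Bnip3, Ctnnd2 and Oser1 were called in PDCUMNT only among these 6 lines.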

How the data were processed

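Total RNA (20 microgram per labelling, per the labels) was reverse transcribed and indirectly labelled with Cy3 or Cy5. The protocol text mentions thawed organs and a control-animal pool as the second cDNA. Each channel's own label names 1 of the ES lines, and the channel labels were followed. The authors deposited ratios for 20794 probes, taken here as log2 from their range. The log base, numerator dye, scanner, image analysis, background correction and normalization are not given in the sources used here. The deposited medians of arrays 1 to 4 were 0.057, 0.072, 0.183 and 0.138, so the ratios were not centred on 0.

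On each array 75 to 98 probes shared 1 top value (16.1 to 16.6), far above the next highest value (at most 7.79), and were treated as not measured. At the low end 200 to 466 probes per array lay under -4, and 93.5% to 99.8% of them shared their value with another probe. Above 4 and below the top value lay 52 to 78 probes per array, and 44.8% to 51.9% of those shared their value. The platform annotation lists 1 gene for 12771 probes, none with several, and 8023 without a gene; all 12771 Entrez identifiers matched RefSeq (GRCm38.p6). Probes of a gene were averaged (2754 genes had several).

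All 52 arrays were fitted with limma 3.58.1 in R 4.3.3 (lmFit, eBayes), with 13 comparison coefficients and a dye term per feature, Benjamini-Hochberg adjustment within each contrast and a threshold of 0.05. A feature needed 3 of 4 arrays and both orientations. The number of arrays limits the precision. The code was checked on simulated data. Named were up to 15 called genes of each sign with the largest ratio and 1 sign on every array, called list members (6 for the X chromosome), the pluripotency and Y-linked lists, genes called in other comparisons with HM-1, and up to 3 genes of each sign in the other contrasts; of the uncalled ones a selection is given. The genes and lists were chosen with earlier results of these data known. Alternatives covered the top values, centring, scaling, dye term, array weights, probe averaging, orientation, missing arrays, joining arrays per line, and each array left out. Array numbers did not pair the arrays: deviations of same-numbered arrays correlated at 0.098 to 0.116 and those of other numbers of the same orientation at 0.105 to 0.112.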

Additional observations from a re-analysis of the deposited data

Results flagged for a closer look

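Among 55 named genes measured on all 4 arrays, 3 had a single array far from the other 3 by Dixon's test, which chance gives in about 1 of 20 groups. Rcn1 was at 1.87 on array 2, Apool at 3.28 on array 3 and Klf4 at 0.12 on array 2.

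For 6 named genes the value of PDCUMNT minus HM-1 differed from the mean of the other 5 lines minus HM-1 at an adjusted p under 0.05 (limma contrast). The difference was 3.90 for Bnip3, -4.56 for Ctnnd2, -1.89 for Oser1, 3.66 for Tctex1d1, -1.56 for Penk and 3.33 for Adipoq. Of these Oser1 and Penk were measured on all 4 arrays of PDCUMNT and HM-1, and the other 4 genes on 3. Adipoq passed in this contrast but not in PDCUMNT minus HM-1 itself (adjusted p = 0.0502).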

How the results depend on the processing

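The count of 180 called features was 97 without a dye term, 272 with 1 coefficient per line (110 shared), 116 with deposited values beyond 4 left out (96 shared, an alternative added after the data were seen) and 118 to 204 without single arrays: 118 without array 1 (81 shared) and 119 without array 2 (71 shared), with 49 positive and 155 negative without array 3 and 48 and 87 without array 4. With array medians subtracted it was 183 (106 positive, 77 negative). Fitted alone, the 4 arrays gave 0. Left as they stand, the ratios gave 468 (394 negative, 28 shared). The count against the other 5 lines (24) was 15 without a dye term, 53 with array weights, 96 as they stand, 14 with all 4 arrays required, 13 with values beyond 4 left out and 24 to 49 without single arrays, 49 without array 3 (47 negative). The 0 features where direct and indirect values differed became 1 with probes tested singly and 4 with ratios as they stand, and stayed 0 without each array. It could not be made with 1 coefficient per line.

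No paired reading was used. With the array number as a replicate block in place of the dye term, 158, 0 and 33 features passed in the 3 contrasts (154 of the 158 shared). Of 50 called named genes 47 passed there, 32 without a dye term, 29 with 1 coefficient per line, 49 with array weights and 0 fitted alone.

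With ratios as they stand the sign turned for Zdhhc19 (-3.41), Inf2 (-0.054), Pdgfd (-1.96), Taf9b (-1.14), Ift46 (-1.75), Gdap2 (-0.30), Dis3l2 (-1.84), Rdh11 (-0.66), Ctnnd2 (1.62), Pqlc3 (0.51), Dhcr7 (0.63), Rap1a (0.80), Zfp42 (0.40), Lefty2 (0.034), Pdlim7 (1.09), Anln (0.81), Hes5 (-2.40), H3f3b (0.10), H4c8 (0.16), Psmd2 (-1.21), Chac1 (1), Plk1 (-0.82), Mid1 (0.30), Mpp1 (-0.081), Apool (-0.76), Tctex1d1 (-3.63), Adipoq (-2.87), Penk (0.70), Klf4 (0.05), Esrrb (-0.55), Zfy1 (0.26), Rhox5 (0.53), Dppa4 (0.53), Tcl1 (0.13), Alpl (0.49) and Pecam1 (0.49), as averaging unturned orientations does by construction. With 1 coefficient per line it turned for Penk (0.23), Klf4 (0.073), Esrrb (-0.084), Sall1 (-0.11) and Rhox5 (0.48). Klf4 turned with medians subtracted (0.029), Sox2 with probes singly (0.15) and with values beyond 4 left out (0.18). Without single arrays Klf4 ran from -0.047 to 0.014, Esrrb from -0.247 (without array 3; -0.149 without array 4) to 0.254, Rhox5 from -0.476 to 0.134 (without array 3) and Penk from -0.325 to 0.298 (without array 4). The causes were not tested. Apart from the fit of the 4 arrays alone and the unturned ratios, Dhcr7, Zfp42, Lefty2, H4c8, Oser1, Rcn1, Ndufb3 and Nono passed under every alternative run. Genes measured on 3 arrays could be fitted without 1 array only where that array lacked them.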
